A study of Mus musculus with 12 samples.

Results

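Long noncoding RNAs (lncRNAs) are transcripts that are not translated into a protein. Some build nuclear bodies, some act on genes beside them on the chromosome, some soak up proteins or microRNAs, and others serve mainly as precursors from which small nucleolar RNAs (snoRNAs) or microRNAs are cut. In the heart, lncRNAs are known from the myosin heavy chain locus, from imprinted loci and as hosts of microRNAs. Here, the 102 well-measured lncRNAs of cultured murine cardiomyocytes were followed after stimulation of the LIF receptor (LIFR), the OSM receptor (OSMR) or both. They are the genes annotated as lincRNA (44), processed_transcript (30), antisense (23) or sense_intronic (5) that were chosen by a mean normalized count of at least 50 over the 12 libraries, a level that takes no account of condition. They were taken from 3026 lncRNA genes of these classes among 22915 genes in all. No gene carried the plain class lncRNA, and 5 genes of the class bidirectional_promoter_lncRNA reached the same level but were outside the rule.

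Primary cardiomyocytes of 12-week-old male C57/Bl6 mice were kept for 24 h under normoxia with PBS, murine LIF (mLIF), murine OSM (mOSM) or human-like OSM (hlOSM), with 3 libraries per condition. The labels give 25 ng/ml for each cytokine, whereas the study's methods state a somewhat lower concentration. mLIF acts through LIFR and mOSM through OSMR, while hlOSM is murine OSM with the AB loop of human OSM and acts through both. Nothing in the sources states whether the 3 libraries of a condition came from separate animals or cell preparations, so p-values measure the spread between these libraries.

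The deposited values are whole-number normalized counts that were not divided by gene length, and their totals per library (2745748 to 2911891) are not read numbers, so the depth behind single values is unknown. The replicate numbers carried almost no difference of their own. Averaged over the 4 conditions, the log2 difference between replicate 3 and replicate 1 was 0.04 in the 102 lncRNAs with an SD over lncRNAs of only 0.0040, whereas the SD of the same difference within a single condition was between 0.188 and 0.239. Libraries of a condition are therefore not independent of same-numbered libraries in the other conditions. The main fit treats them as independent, so its p-values, which are those printed unless the blocked fit is named, may be too small. Counts of lncRNAs past the threshold are also given from a second fit, blocked by replicate number. Summed cardiomyocyte markers (Myh6, Tnnt2, Actc1, Ttn, Myl2 and Ryr2) lay between 45476 and 46972 with PBS, 39353 and 40961 after mLIF, 31710 and 35552 after mOSM, and 32604 and 34980 after hlOSM. The 6 endothelial markers summed to between 1045 and 1086 with PBS and to between 1265 and 1445 with mOSM or hlOSM, and the 6 smooth muscle and pericyte markers to between 950 and 1188 with PBS and to between 602 and 714 with mOSM or hlOSM. Fibroblast markers lay between 1982 and 2216 with PBS, 1847 and 1981 after mLIF, 2202 and 2597 after mOSM, and 2079 and 2320 after hlOSM. Macrophage markers lay, in this order, between 296 and 314, 277 and 316, 337 and 381, and 311 and 382. Schwann cell markers lay between 30 and 40, 17 and 23, 18 and 26, and 13 and 25. Adipocyte markers lay between 0 and 5 in all libraries. In these bulk samples fewer cells of a type and less RNA per cell cannot be told apart, and the part of cell composition in the lncRNA values was not tested.

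The 102 lncRNAs made up between 0.877% and 0.917% of the total with PBS, between 0.845% and 0.870% after mLIF, between 0.801% and 0.853% after mOSM, and between 0.807% and 0.837% after hlOSM. Malat1, a nuclear speckle RNA, and Neat1, the scaffold of paraspeckles, together held between 33.1% and 35.8% of this amount. Only 4 lncRNAs had a mean of at least 1000 (Malat1, Neat1, Kcnq1ot1 and Oip5os1), and 52 had a mean under 100. Per kilobase of exon, the mean level was 697 for Malat1, 162 for Neat1, 151 for Oip5os1 and 14.3 for Kcnq1ot1, against a median of 31.9 over the 102. Just inside the limit were 2310015A10Rik and Morrbid, both with a mean of 50.3, and Gm42047 with 50.5, while Gm45767 with 49.5 and A630072M18Rik with 49.4 were just outside.

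Several of these genes are microRNA precursors, and their mature products are printed here because the hosts of microRNAs with a shared seed moved in opposite directions. By position, 8 lncRNAs held 41 mature microRNAs on their own strand (RefSeq, GRCm38.p6). Mir99ahg (chr16:77236317-77773427, plus strand) and Mir100hg (chr9:41327077-41716994, plus strand) are paralogous clusters, each with a member of the miR-99/100 family, a let-7 and a miR-125b. In the following sequences, written 5′ to 3′, capitals mark the seed at bases 2 to 8.
mmu-miR-99a-5p (Mir99ahg): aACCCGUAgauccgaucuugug
mmu-miR-100-5p (Mir100hg): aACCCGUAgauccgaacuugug
mmu-miR-125b-5p (Mir99ahg and Mir100hg): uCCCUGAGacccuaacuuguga
mmu-let-7c-5p (Mir99ahg): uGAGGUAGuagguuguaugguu
mmu-let-7a-5p (6720427I07Rik and Mir100hg): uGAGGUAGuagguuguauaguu
mmu-let-7d-5p (6720427I07Rik): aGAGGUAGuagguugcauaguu
mmu-miR-15a-5p (Dleu2): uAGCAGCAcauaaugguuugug
mmu-miR-16-5p (Dleu2): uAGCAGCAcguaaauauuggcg
mmu-miR-17-5p (Mir17hg): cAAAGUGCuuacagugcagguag
mmu-miR-20a-5p (Mir17hg): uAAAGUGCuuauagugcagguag
mmu-miR-29c-3p (A330023F24Rik): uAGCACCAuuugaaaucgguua
mmu-miR-22-3p (Mir22hg): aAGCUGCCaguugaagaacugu
The seeds ACCCGUA and CCCUGAG occurred in products of both Mir99ahg and Mir100hg, and the let-7 seed GAGGUAG in products of Mir99ahg and 6720427I07Rik. Mir100hg holds the let-7a-2 hairpin, whose 5p arm is also let-7a-5p, so that this seed belongs to Mir100hg as well. The sequence table lists let-7a-5p only at let-7a-1, and the 41 do not count the copy in Mir100hg. The libraries measured host RNA, not mature microRNAs.

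All 102 lncRNAs passed the filter of the test. More of them were lowered than raised with every cytokine. mLIF lowered 16 and raised 6 (15.7% and 5.88%, against 4.44% lowered and 5.47% raised among all 13184 genes tested). mOSM lowered 37 and raised 18 (36.3% and 17.6%, against 15.8% and 15.4%), and hlOSM lowered 41 and raised 20 (40.2% and 19.6%, against 19.8% and 18.2%). Raised lncRNAs were thus near the background of all genes, while lowered lncRNAs were above it. Among 8494 protein-coding genes with a mean of at least 50, 5.38% were lowered and 6.76% raised by mLIF, 16.6% and 17.4% by mOSM, and 21.1% and 20.4% by hlOSM. The background above the same floor was thus close to that of all genes. A floor does not match levels, and no background matched in level to the lncRNAs was computed. In the blocked fit, 13 lncRNAs were lowered and 5 raised by mLIF (all genes 2.56% and 3.39%), 32 and 17 by mOSM (12.8% and 12.5%), and 38 and 19 by hlOSM (16.5% and 14.7%). Without mLIF replicate 3, mLIF lowered 8 and raised 3, and without PBS replicate 3 it lowered 9.

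**Figure D1:**
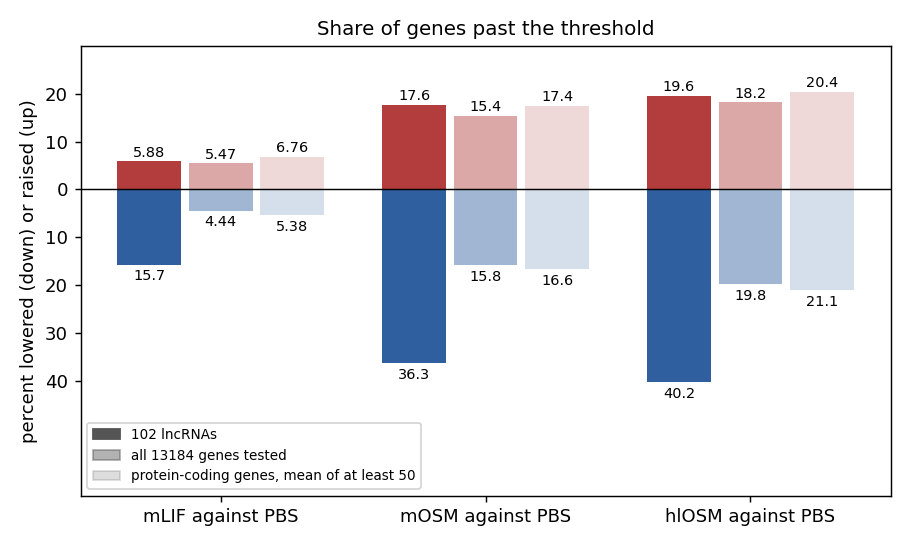
Percent of genes raised (upward bars) or lowered (downward bars) past a limma adjusted p of 0.05 with each cytokine against PBS, for the 102 lncRNAs, all 13184 genes tested and 8494 protein-coding genes with a mean of at least 50. The dark downward bars of the lncRNAs reach 15.7%, 36.3% and 40.2%, further down than the 4.44%, 15.8% and 19.8% of all genes.

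The median log2 fold change of the 102 lncRNAs was −0.12 after mLIF, −0.19 after mOSM and −0.20 after hlOSM, with medians of all genes within 0.01 of 0. The 3 PBS libraries did not overlap with the 3 cytokine libraries in 47 lncRNAs for mLIF (46.1%, all genes 30.3%), 59 for mOSM (57.8%, all genes 40.1%) and 64 for hlOSM (62.7%, all genes 47%). No lncRNA rose by 1 or more on the log2 scale. A fall of at least 1 was found in 0 lncRNAs for mLIF, 6 for mOSM and 10 for hlOSM. The share of all genes with a change of this size was not counted. By class, lincRNAs had medians of −0.22 for mOSM and −0.27 for hlOSM in 44 genes, beside −0.13 and −0.13 in 23 antisense RNAs and −0.14 and −0.08 in 30 processed transcripts.

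At least 1 cytokine changed 66 lncRNAs, 44 downward and 22 upward, and no lncRNA was changed in opposite directions by different cytokines. All 3 cytokines lowered 16 lncRNAs and raised 5. Both mOSM and hlOSM, but not mLIF, put 18 lower and 11 higher past the threshold. hlOSM alone lowered 7 and raised 3, mOSM alone lowered 3 and raised 2, and mLIF alone changed 0. Being past the threshold with one cytokine and not with another does not show that the cytokines differ, so the direct comparisons are given further on. In the blocked fit, 13 were lowered and 4 raised by all 3 cytokines. These patterns, the absence of opposite changes included, were not counted over all genes, so there is no background for them.

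**Figure D2:**
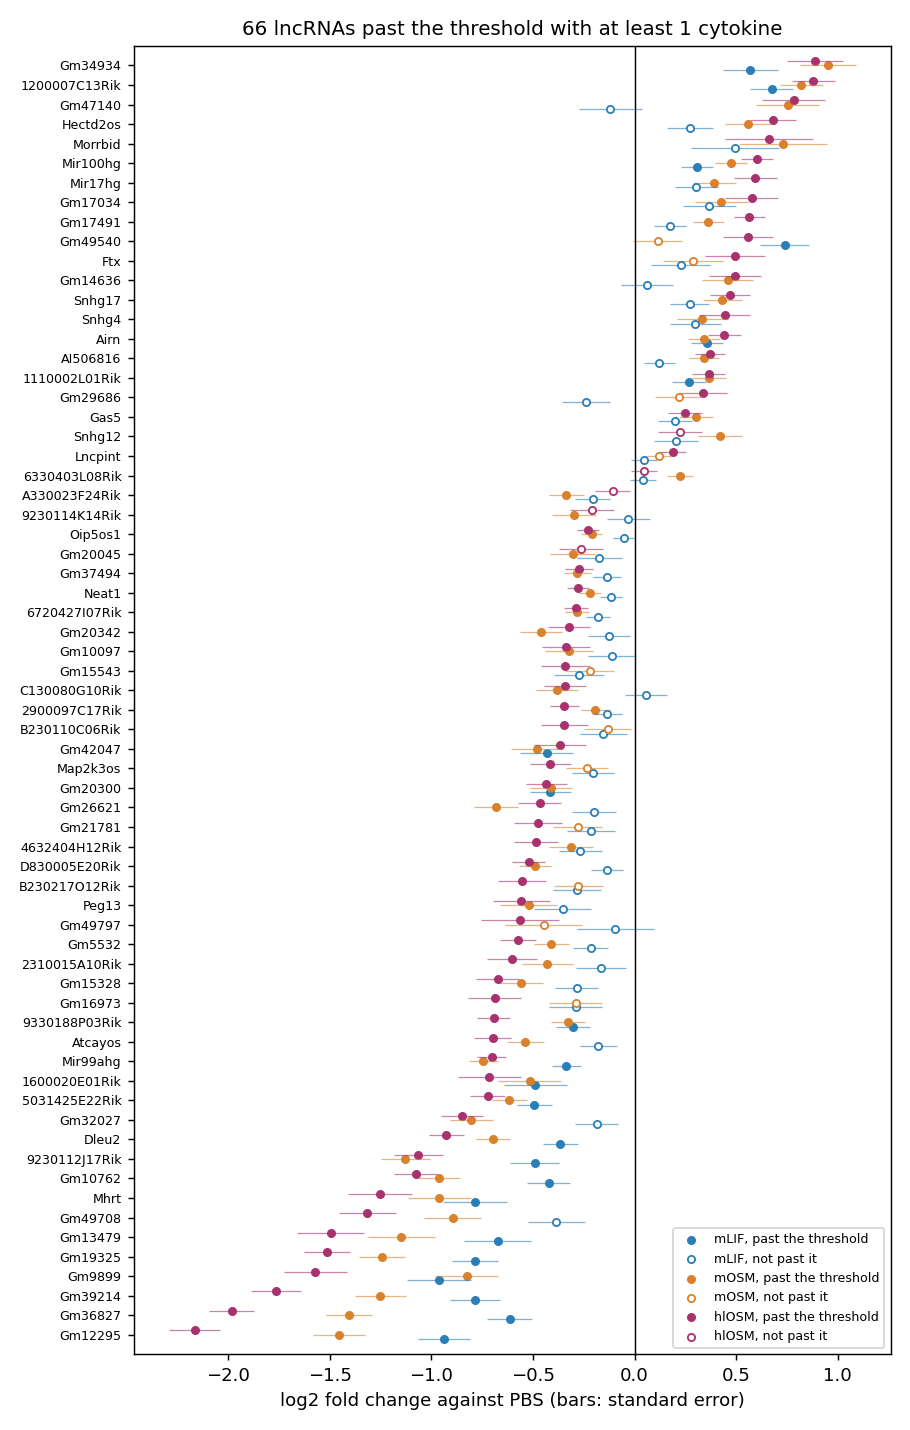
Log2 fold change against PBS of the 66 lncRNAs changed by at least 1 cytokine, ordered by the value with hlOSM; bars are standard errors, filled points passed the threshold and open points did not. The 22 raised lncRNAs stay below 1, while falls reach −2.17 with hlOSM in Gm12295.

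With mOSM and hlOSM, the 3 deepest falls were those of Gm12295, Gm36827 and Gm39214, lincRNAs without an established role, and with mLIF that of Gm9899, a processed transcript described with its neighbour further on. Gm12295 (chr11:65277654-65365798, minus strand) had normalized counts of 210, 185 and 264 with PBS, 116, 118 and 105 with mLIF, 73, 74 and 90 with mOSM, then 50, 54 and 40 with hlOSM. No 2 of the 4 conditions overlapped, and the levels descended from PBS over mLIF and mOSM to hlOSM. The log2 fold changes reached −0.94, −1.45 and −2.17 (standard error 0.13, limma, adjusted p = 0.000108, 1.25e-08 and 1.54e-11), so that 0.223 of the PBS level remained with hlOSM. Gm36827 (chr10:56970329-56982232, minus strand) had 285, 289 and 257 with PBS, 189, 180 and 172 with mLIF, 98, 87 and 131 with mOSM, then 65, 76 and 67 with hlOSM. Here, too, no conditions overlapped, and the log2 fold changes were −0.62, −1.41 and −1.98 (standard error 0.11, limma, adjusted p = 0.00138, 2.97e-09 and 7.17e-12). Gm39214 (chr8:85730816-85765095, plus strand) had 131, 123 and 162 with PBS, 86, 79 and 74 with mLIF, 60, 53 and 59 with mOSM, then 36, 46 and 38 with hlOSM. The log2 fold changes of −0.78, −1.25 and −1.77 (standard error 0.12) followed the same order, again without overlap between conditions. Gm19325 stood at −0.79, −1.24 and −1.52, and Gm13479 at −0.67, −1.15 and −1.50. All of these calls remained in the blocked fit.

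The 4 largest rises with hlOSM were those of Gm34934, 1200007C13Rik, Gm47140 and Hectd2os. Gm34934 (chr14:46866576-46882757, minus strand) had 34, 45 and 36 with PBS, 60, 46 and 67 with mLIF, 78, 74 and 72 with mOSM, then 70, 72 and 72 with hlOSM. Every cytokine library was above every PBS library, with log2 fold changes of 0.57, 0.95 and 0.89 (standard error 0.14, limma, adjusted p = 0.0109, 1.24e-05 and 2.2e-05). 1200007C13Rik (chr2:167827693-167833646, minus strand) had 112, 107 and 84 with PBS, 164, 147 and 172 with mLIF, 174, 171 and 189 with mOSM, then 161, 188 and 210 with hlOSM. It rose by similar amounts with every cytokine, 0.68, 0.82 and 0.88 on the log2 scale (standard error 0.11), and its groups overlapped among the cytokines but not with PBS.

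**Figure D3:**
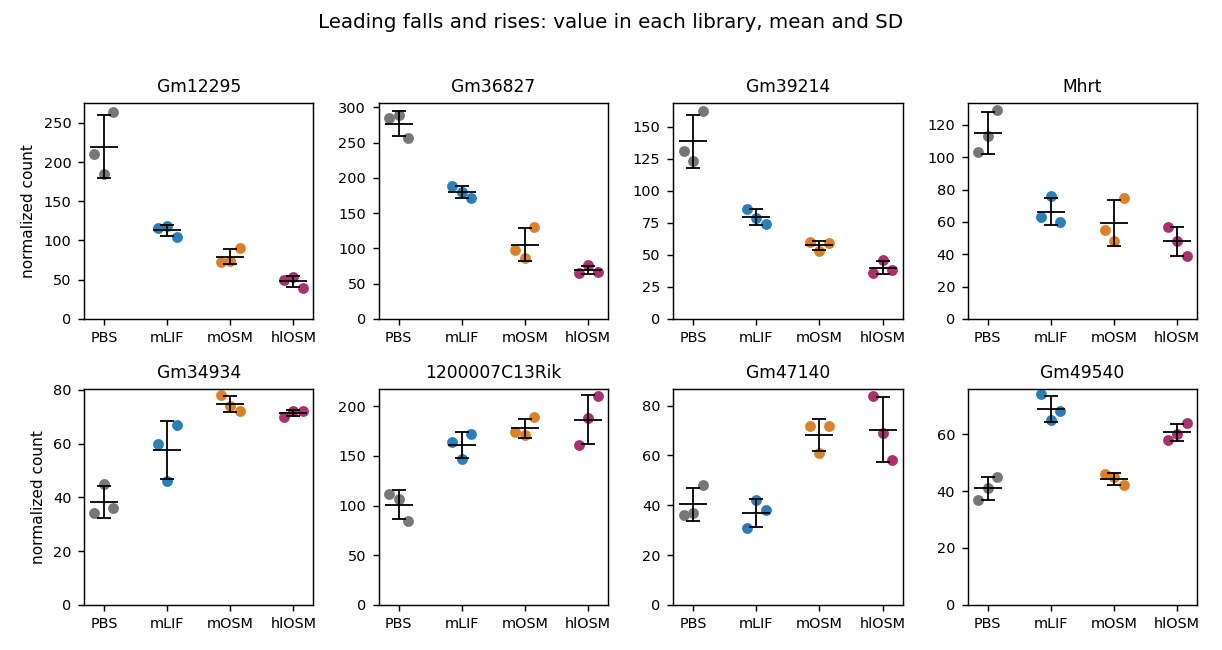
Normalized count in each library (points), mean and SD (bars, n = 3) of 4 lncRNAs that fell and 4 that rose. Gm12295, Gm36827 and Gm39214 step down without overlap from PBS to hlOSM, Gm34934 and 1200007C13Rik rise with every cytokine, Gm47140 stays at PBS level with mLIF, and Gm49540 with mOSM.

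Among the 8 microRNA hosts, mLIF lowered 2 and raised 1, mOSM lowered 4 and raised 2, and hlOSM lowered 3 and raised 3 (all genes 4.44% and 5.47%, 15.8% and 15.4%, and 19.8% and 18.2%). The paralogous hosts moved apart. Mir99ahg had 896, 942 and 990 with PBS, 793, 761 and 688 with mLIF, 518, 531 and 645 with mOSM, then 599, 572 and 564 with hlOSM. All cytokine libraries were below PBS, with the mOSM and hlOSM libraries below mLIF, and the log2 fold changes were −0.34, −0.74 and −0.70 (standard error 0.07, limma, adjusted p = 0.00495, 4.82e-08 and 8.11e-08). Mir100hg had 520, 482 and 414 with PBS, 586, 555 and 603 with mLIF, 636, 639 and 688 with mOSM, then 636, 710 and 806 with hlOSM. It was above PBS in every cytokine library and rose by 0.31, 0.48 and 0.60 (standard error 0.08, limma, adjusted p = 0.0172, 7.24e-05 and 2.83e-06). The hosts of the printed miR-99a and miR-100, which share their seed, and of both miR-125b copies therefore went in opposite directions in the same libraries.

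Mir99ahg spans a long stretch of the chromosome, and 7 tested genes of the class TEC, which marks transcripts that await experimental proof, lie inside it on the same strand without sharing exonic bases with it. Of these, mLIF lowered 3, mOSM 6 and hlOSM 6, and none was raised (all genes lowered 4.44%, 15.8% and 19.8%). Their log2 fold changes with mOSM ranged from −1.20 for Gm36963 to −0.50 for Gm37063, the only one that passed with no cytokine, with a median of −0.78 beside −0.74 for Mir99ahg itself. Gm37606 fell by 0.33, 0.76 and 0.69 with mLIF, mOSM and hlOSM. Reads from unspliced host RNA and from separate transcripts cannot be told apart in these counts.

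Of the other hosts, Dleu2 was also lowered by all 3 cytokines. Dleu2, the host of miR-15a and miR-16-1, had 212, 213 and 256 with PBS, 176, 176 and 174 with mLIF, 132, 149 and 137 with mOSM, then 128, 112 and 116 with hlOSM. These levels descended without overlap between conditions, by 0.37, 0.70 and 0.93 on the log2 scale below PBS (standard error 0.09, limma, adjusted p = 0.00899, 1.47e-06 and 1.7e-08). 6720427I07Rik, which holds let-7a-1, let-7d and let-7f-1, fell by 0.28 with mOSM and by 0.29 with hlOSM, and its difference of −0.18 with mLIF did not pass. Mir17hg, which encodes the miR-17 to miR-92a cluster known to promote proliferation, had 69, 76 and 67 with PBS, 87, 91 and 84 with mLIF, 96, 88 and 95 with mOSM, then 102, 96 and 125 with hlOSM. All cytokine libraries exceeded PBS, with log2 fold changes of 0.30, 0.39 and 0.59 (standard error 0.11), of which that with mLIF did not pass (limma, adjusted p = 0.0706, 0.00658 and 0.000119). A330023F24Rik, the host of miR-29b-2 and miR-29c, was lower with mOSM (−0.34) but not past the threshold with hlOSM (−0.11), a difference between both of 0.23 that did not pass either (standard error 0.09, limma, adjusted p = 0.519). The X-linked Ftx, which holds miR-421 and miR-374b, rose with hlOSM by 0.49, and Mir22hg was not changed past the threshold by any cytokine (−0.06, 0.12 and 0.06). Dleu2 and A330023F24Rik were included for their microRNAs after their values were seen.

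**Figure D4:**
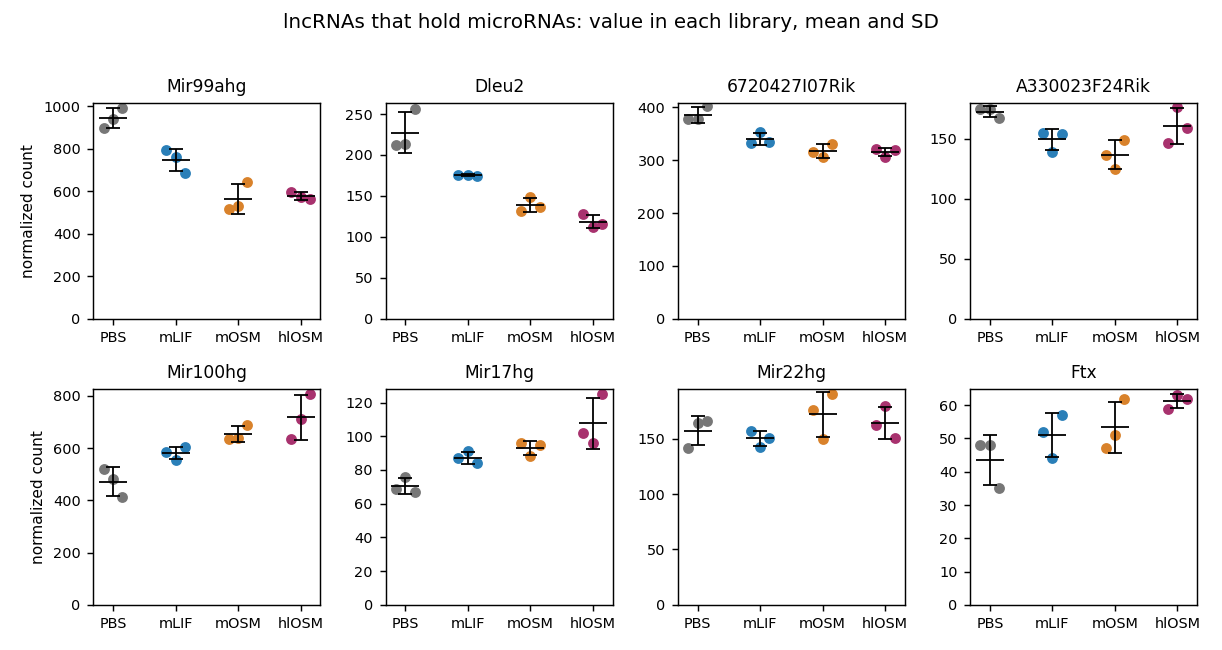
Normalized count in each library (points), mean and SD (bars, n = 3) of the 8 lncRNAs found to hold microRNAs on their strand. Mir99ahg, Dleu2 and 6720427I07Rik descend, Mir100hg and Mir17hg ascend, and Mir22hg stays between 142 and 190 in all libraries.

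A motif of the form TTCNNNGAA, to which STAT proteins downstream of both receptors are known to bind, was searched on both strands in RefSeq promoters (250 bases before to 50 after the start, GRCm38.p6). Promoters of 61 of the 102 lncRNAs were matched by symbol, and 5 of their 70 promoters (7.14%) held the motif, against 8.3% of all 32851 promoters. The 5 genes were Dubr, Gm15543, Gm29686, Mir99ahg and Rab10os. In the RefSeq promoter of Mir99ahg (chr16:77329078-77329377, plus strand), shown because this host fell with every cytokine, the motif, in capitals, begins 112 bases before the start. This start lies inside the gene as counted, which begins at chr16:77236317 and has 17 annotated transcripts.
Mir99ahg promoter: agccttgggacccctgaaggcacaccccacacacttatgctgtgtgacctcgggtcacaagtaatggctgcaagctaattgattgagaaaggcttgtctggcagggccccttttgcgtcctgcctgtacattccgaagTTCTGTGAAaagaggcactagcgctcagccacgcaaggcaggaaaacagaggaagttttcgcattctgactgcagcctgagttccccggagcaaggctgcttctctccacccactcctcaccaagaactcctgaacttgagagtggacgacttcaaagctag
Gm15543 was lowered by hlOSM (−0.34) and Gm29686 raised (0.34), both without passing in the blocked fit, and Dubr and Rab10os passed with no cytokine. Gm15543 and Rab10os are named here only because the motif was found in them.

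LncRNAs that host snoRNAs, which guide the chemical modification of ribosomal RNA, were raised by OSM or did not pass the threshold. Of 7 well-measured hosts, mOSM raised 4 (Gas5, Snhg4, Snhg12 and Snhg17), hlOSM raised 3 (Gas5, Snhg4 and Snhg17), mLIF changed 0, and none was lowered (all genes raised 15.4% by mOSM and 18.2% by hlOSM). Snhg17 had 86, 84 and 75 with PBS, 94, 102 and 100 with mLIF, 106, 102 and 124 with mOSM, then 113, 110 and 117 with hlOSM. Every cytokine library was above PBS, and the log2 fold changes were 0.27, 0.43 and 0.47 (standard error 0.10, limma, adjusted p = 0.0763, 0.0015 and 0.000537). Gas5 (0.20, 0.30 and 0.25) and Snhg4 (0.30, 0.33 and 0.44) rose less clearly, and Snhg4 did not pass for mOSM in the blocked fit. Snhg1, Snhg5 and Snhg15 were not past the threshold, with log2 fold changes between −0.16 and 0.19. In the wider list of 19 tested snoRNA hosts, which adds genes of lower level or other class, 1, 8 and 7 were raised and 1, 2 and 2 lowered with mLIF, mOSM and hlOSM. Of 14 proteins of the snoRNA-protein particles, such as fibrillarin and dyskerin, 2, 5 and 7 were raised and none lowered, and the median log2 fold changes were 0.00, 0.20 and 0.23 beside medians of all genes near 0. Of 10 factors of nonsense-mediated decay, the pathway known to degrade many spliced snoRNA host RNAs, 0, 1 and 3 were lowered and none raised, beside 4.44%, 15.8% and 19.8% of all genes lowered.

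The nuclear and abundant lncRNAs moved little. Malat1 had 5174, 4830 and 4954 with PBS and between 4198 and 5618 with the cytokines, so that the conditions overlapped, and its log2 fold changes of −0.09, −0.06 and −0.01 did not pass. Neat1 had 3966, 3695 and 3533 with PBS, 3363, 3363 and 3612 with mLIF, 3134, 3191 and 3284 with mOSM, then 2921, 3042 and 3270 with hlOSM. Its mOSM and hlOSM libraries were all below PBS, with falls of 0.22 and 0.28 on the log2 scale (standard error 0.05, limma, adjusted p = 0.00338 and 0.000311). Of 16 paraspeckle proteins, none was lowered by any cytokine (all genes lowered 4.44%, 15.8% and 19.8% by mLIF, mOSM and hlOSM). Of the same 16, mOSM raised 3 and hlOSM 2 (all genes 15.4% and 18.2%). Kcnq1ot1, Firre, Dubr, Hand2os1 and Mir22hg likewise passed with no cytokine, and Lncpint, a p53-responsive lncRNA, passed with hlOSM only (0.19).

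Oip5os1 and 2900097C17Rik, lncRNAs with known binding partners, also fell modestly with both OSM forms. Oip5os1, the mouse Cyrano RNA, is known for a site with extensive pairing to miR-7. This site was found at positions 2935 to 2959 of its longer transcript. The best ungapped alignment paired 16 of the 23 bases of the microRNA, but with the seed match out of register. The marked seed match is therefore not counted in its own register among these 16, and pairing with a gap was not computed. Capitals mark the seed of miR-7 and its match.
mmu-miR-7a-5p: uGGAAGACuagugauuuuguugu
Oip5os1 site: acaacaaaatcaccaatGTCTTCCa
Oip5os1 had 1383, 1315 and 1386 with PBS, 1357, 1290 and 1295 with mLIF, 1150, 1200 and 1176 with mOSM, then 1091, 1142 and 1253 with hlOSM. Its mLIF libraries overlapped with PBS, and its mOSM and hlOSM libraries were all lower (−0.21 and −0.23, standard error 0.05, limma, adjusted p = 0.00394 and 0.00159). 2900097C17Rik, the mouse Norad RNA, is known to sequester Pumilio proteins. Its transcript of 4915 bases held the Pumilio element UGUANAUA 11 times, and of 29786 genes with a longest transcript of at least 1000 bases only 7, Norad included, held as many. Norad had 253, 235 and 242 with PBS, 201, 210 and 227 with mOSM, then 179, 196 and 199 with hlOSM. Its fall with hlOSM was 0.35 on the log2 scale (standard error 0.07, limma, adjusted p = 0.000575), and that with mOSM (0.19, adjusted p = 0.0421) did not pass in the blocked fit (adjusted p = 0.0897).

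LncRNAs often lie on or beside other genes, and 69 of the 102 did so here. Not all of these neighbours passed the filter of the test, which left 91 different pairs with a tested neighbour. The annotated gene of the lncRNA overlapped the neighbour on the same strand in 33 pairs, overlapped it on the opposite strand in 38, and started within 5 kb of it in divergent orientation in 20. The counting is stated to have left out reads that overlap more than 1 gene, and its strand setting is not given in the sources used here, so reads of antisense partners may not be fully separated. Exonic bases were shared with a gene on the same strand in 26 lncRNAs and on the other strand in 39, while 47 shared none.

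Both genes of a pair were past the threshold in the same direction in 9, 25 and 27 pairs for mLIF, mOSM and hlOSM, and in opposite directions in 1, 2 and 6. In the 63 pairs with a protein-coding neighbour, these numbers were 5, 12 and 14 in the same direction and 1, 2 and 6 in opposite directions. Over the 91 pairs, the lncRNA passed in 28, 49 and 58 and the neighbour in 18, 40 and 50. Pairs of other neighbouring genes were not counted, so there is no background for pairs that moved together. Of the lncRNAs without any shared exonic base, 8, 21 and 22 were lowered and 3, 8 and 9 raised. As a description over pairs, which share libraries and partly genes (7 of the 33 same-strand pairs are those within Mir99ahg), the log2 fold changes of lncRNA and neighbour correlated for mLIF, mOSM and hlOSM with r = 0.40, 0.79 and 0.76 on the same strand, 0.16, 0.27 and 0.25 on the opposite strand, and 0.45, 0.35 and 0.33 in divergent pairs. Only 9 of the 33 same-strand pairs had a protein-coding neighbour. Of these 9, 0, 1 and 1 moved the same way and 0, 0 and 1 moved apart, with r = 0.14, 0.69 and 0.60. When single libraries were left out, pairs changed together by mLIF numbered 2 to 12, with 2 without mLIF replicate 3 and 3 without PBS replicate 3. In the blocked fit, pairs moving the same way numbered 4, 20 and 26 and pairs moving apart 0, 2 and 5.

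**Figure D5:**
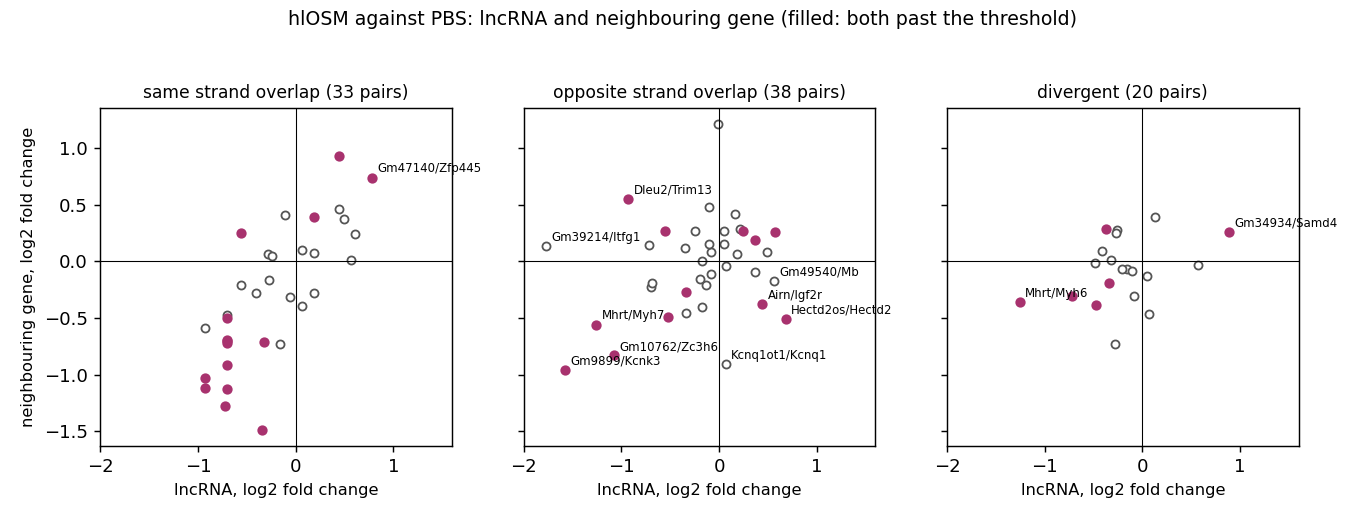
Log2 fold change with hlOSM against PBS of each lncRNA (horizontal) and of its tested neighbour (vertical) for 33 same-strand, 38 opposite-strand and 20 divergent pairs; filled points have both genes past the threshold. Most same-strand pairs past the threshold lie at the lower left, where both genes fell, while Airn/Igf2r and Hectd2os/Hectd2 lie at a raised lncRNA and a lowered neighbour, and Mhrt and Gm9899 fall together with theirs.

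At the cardiac myosin locus, Mhrt, an antisense RNA known to be largely confined to the heart, starts between Myh6 and Myh7, the genes of the alpha and beta myosin heavy chains. Mhrt (chr14:54968678-54974349, plus strand) had 103, 113 and 129 with PBS, 63, 76 and 60 with mLIF, 55, 48 and 75 with mOSM, then 57, 48 and 39 with hlOSM. All cytokine libraries were below PBS, with log2 fold changes of −0.79, −0.96 and −1.25 (standard error 0.16, limma, adjusted p = 0.00273, 5.22e-05 and 1.28e-06). Both myosin genes fell less. Myh6 decreased by 0.30, 0.35 and 0.36 on the log2 scale, from 3631, 3603 and 4060 with PBS to 3026, 3061 and 2716 with hlOSM. Myh7, which overlaps Mhrt on the other strand, decreased by 0.26, 0.44 and 0.56, from 457, 463 and 475 with PBS to 330, 334 and 283 with hlOSM, and its fall with mLIF did not pass in the blocked fit (adjusted p = 0.0699). Of the exonic bases of Mhrt, 39.9% are also exonic on the other strand.

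At the imprinted Igf2r locus the pair moved apart. Airn, whose transcription from the paternal chromosome is known to silence Igf2r there, had 248, 235 and 209 with PBS, 308, 285 and 292 with mLIF, 278, 283 and 316 with mOSM, then 282, 312 and 348 with hlOSM. It was above PBS in every cytokine library, with log2 fold changes of 0.36, 0.34 and 0.44 (standard error 0.08, limma, adjusted p = 0.00703, 0.00227 and 0.000152). Igf2r, the receptor that clears IGF2, had 1109, 1128 and 1196 with PBS, 989, 1033 and 1019 with mLIF, 954, 907 and 925 with mOSM, then 875, 856 and 912 with hlOSM. Its libraries with cytokines were all lower, by 0.17, 0.30 and 0.38 (standard error 0.05), and the fall with mLIF did not pass in the blocked fit (adjusted p = 0.0638). No exonic base was shared between both genes.

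Hectd2os and Hectd2, a ubiquitin ligase gene, were, beside Airn and Igf2r, the pair that moved apart with mOSM. Hectd2os (chr19:36614052-36705641, minus strand) had 124, 97 and 89 with PBS, 112, 128 and 132 with mLIF, 154, 141 and 159 with mOSM, then 142, 172 and 183 with hlOSM. Its mOSM and hlOSM libraries exceeded all PBS libraries, by 0.56 and 0.68 (standard error 0.11, limma, adjusted p = 0.000599 and 5.34e-05). Hectd2 had 129, 117 and 147 with PBS, 111, 99 and 85 with mOSM, then 87, 85 and 103 with hlOSM, a decrease by 0.41 and 0.51 (standard error 0.12, limma, adjusted p = 0.00887 and 0.00139). Here 46.1% of the exonic bases of Hectd2os are shared with the other strand. The 4 further pairs that moved apart with hlOSM were Dleu2 with Trim13 (−0.93 and 0.55), B230217O12Rik with Fam160b1 (−0.55 and 0.27), Gm49797 with Scaf8 (−0.56 and 0.25) and Gm42047 with Klhdc4 (−0.37 and 0.28); the last 3 lncRNAs were named after their values were seen. Gm42047 did not pass for hlOSM in the blocked fit (adjusted p = 0.076), so that this pair no longer moved apart there.

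Gm9899 and Kcnk3, which encodes a background potassium channel, fell together. Gm9899 had 86, 75 and 101 with PBS, 44, 43 and 45 with mLIF, 53, 42 and 51 with mOSM, then 25, 37 and 25 with hlOSM. All cytokine libraries lay below PBS and the hlOSM libraries below all others, with log2 fold changes of −0.96, −0.83 and −1.57 (standard error 0.16). Kcnk3 had 150, 148 and 158 with PBS, 93, 107 and 101 with mLIF, 100, 95 and 103 with mOSM, then 81, 74 and 78 with hlOSM. Its log2 fold changes were −0.60, −0.61 and −0.96, likewise lowest with hlOSM. Only 3.70% of the exonic bases of Gm9899 are shared with the other strand. Gm10762 and Zc3h6, a zinc finger gene that overlaps it on the other strand, showed −0.42, −0.96 and −1.08 beside −0.35, −0.82 and −0.83, of which the change of Zc3h6 with mLIF did not pass. D830005E20Rik lies antisense within Trdn, the gene of the junctional protein triadin, without shared exonic bases, and both fell with mOSM (−0.49 and −0.41) and hlOSM (−0.52 and −0.49).

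Other lncRNAs moved while their partner did not, or the reverse. Gm39214, lowered by all 3 cytokines, lies antisense within Itfg1, whose log2 fold changes of 0.17, 0.05 and 0.13 did not pass. Conversely, the imprinted Kcnq1ot1 had 1308, 1407 and 1300 with PBS and 1400, 1402 and 1408 with hlOSM, whereas Kcnq1, the potassium channel gene it is antisense to, went from 97, 106 and 113 to 54, 59 and 54, a decrease by 0.91 (standard error 0.11, limma, adjusted p = 6.42e-07). Hand2os1 did not pass (0.03, −0.15 and −0.17), while Hand2, a transcription factor of heart development, decreased by 0.38, 0.28 and 0.40. Peg13, an imprinted lncRNA within Trappc9 on the same strand, fell with mOSM and hlOSM (−0.52 and −0.56), and Trappc9 did not pass (−0.13 and −0.21). In the list of 7 tested imprinted lncRNAs, Airn was the only one raised, with any of the cytokines, while 1, 4 and 4 were lowered. Of all genes, 5.47%, 15.4% and 18.2% were raised and 4.44%, 15.8% and 19.8% lowered by mLIF, mOSM and hlOSM.

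In divergent orientation, Gm34934 and Samd4, the gene of an RNA-binding translational repressor, start 97 bp apart in the table. Samd4 had 693, 733 and 698 with PBS, 809, 771 and 811 with mLIF, 840, 820 and 828 with mOSM, then 815, 818 and 919 with hlOSM. Like Gm34934 it was higher in every cytokine library, but by less (0.17, 0.23 and 0.26, standard error 0.05), and its rise with mLIF did not pass in the blocked fit (adjusted p = 0.0966). The RefSeq promoter of Gm34934 (GRCm38.p6, chr14:46882750-46883049, minus strand) is printed because it is shared by both genes. The capitals at its left end are bases transcribed, on the opposite strand, as Samd4, and those at its right end are the first bases of Gm34934, with 165 bases between them.
Gm34934 promoter: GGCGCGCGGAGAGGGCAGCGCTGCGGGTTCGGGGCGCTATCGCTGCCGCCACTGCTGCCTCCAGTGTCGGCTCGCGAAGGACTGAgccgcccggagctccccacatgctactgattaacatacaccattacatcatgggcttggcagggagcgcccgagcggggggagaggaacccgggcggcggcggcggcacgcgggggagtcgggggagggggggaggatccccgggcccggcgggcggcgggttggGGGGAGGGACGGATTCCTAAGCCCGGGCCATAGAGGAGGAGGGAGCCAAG
These 300 bases held 72.3% G or C and 32 CG pairs, and the motif TTCNNNGAA was not among them.

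A difference between the LIFR and the OSMR ligands was seen in Gm47140, a sense_intronic RNA within Zfp445, a zinc finger gene known for the maintenance of imprints. Gm47140 had 36, 37 and 48 with PBS, 31, 42 and 38 with mLIF, 72, 61 and 72 with mOSM, then 84, 69 and 58 with hlOSM. The mLIF libraries overlapped with PBS and the mOSM and hlOSM libraries were above both, with log2 fold changes of −0.12, 0.75 and 0.78 and a difference between mOSM and mLIF of 0.87 (standard error 0.16, limma, adjusted p = 0.000415). Zfp445 had 793, 738 and 831 with PBS, 872, 786 and 791 with mLIF, 1293, 1336 and 1418 with mOSM, then 1230, 1400 and 1324 with hlOSM. The log2 fold changes of Zfp445 (0.05, 0.78 and 0.74, standard error 0.06) ran beside those of the RNA within its intron. Reads from unspliced Zfp445 RNA and from a separate Gm47140 transcript cannot be told apart in these counts. Gm17491, in the same position within Slc20a2, rose with mOSM and hlOSM (0.36 and 0.56) while Slc20a2 stayed at −0.01 and 0.01.

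Gm49540 was higher with mLIF than with mOSM. This antisense RNA over Mb, the myoglobin gene, had 37, 41 and 45 with PBS, 74, 65 and 68 with mLIF, 46, 45 and 42 with mOSM, then 58, 60 and 64 with hlOSM. The mLIF and hlOSM libraries were above PBS and mOSM, and the mOSM libraries overlapped with PBS. Against PBS it stood at 0.74, 0.11 and 0.56 on the log2 scale, and mOSM was below mLIF by 0.63 (standard error 0.12, limma, adjusted p = 0.00107). It was the only lncRNA raised by mLIF and hlOSM without mOSM. Mb decreased by about the same with each cytokine without passing (−0.18, −0.17 and −0.17), and 64.6% of the exonic bases of Gm49540 are shared with the other strand.

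Compared directly, mOSM put 16 lncRNAs lower and 3 higher than mLIF (all genes 5.76% and 6.05%), and hlOSM put 25 lower and 7 higher than mLIF (all genes 9.22% and 7.42%). In the blocked fit the changed lncRNAs numbered 16 and 26 in either direction (all genes 8.81% and 12.2%). The 3 higher with mOSM were Gm47140, Gm29686 and Gm14636, with differences of 0.87, 0.46 and 0.40, of which Gm14636 did not pass in the blocked fit. Among those lower with mOSM than with mLIF, the largest differences were Gm36827 (−0.79), 9230112J17Rik (−0.64), Gm49540 (−0.63), Gm32027 (−0.62) and Gm10762 (−0.54). Mir99ahg was lower with mOSM (−0.41) and with hlOSM (−0.37) than with mLIF, and Mir100hg was higher with hlOSM than with mLIF (0.30). Neat1, Mhrt and Norad were lower with hlOSM than with mLIF (−0.16, −0.47 and −0.21), each without passing in the blocked fit.

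hlOSM differed from mOSM in 2 lncRNAs, Gm12295 (−0.71, standard error 0.13) and Gm36827 (−0.58, standard error 0.11), both lower with hlOSM (limma, adjusted p = 0.0338 and 0.0462, all genes 0.106% lowered and 0% raised). Neither passed in the blocked fit (adjusted p = 0.0808 and 0.13, all genes 0.0152%), and the count fell to 0 without hlOSM replicate 1 or 3, without mOSM replicate 1 or 3 and without any mLIF replicate. In all, 19 lncRNAs had an unadjusted p under 0.05 (all genes 7.49%). Over the 102 lncRNAs the difference between both OSM forms had a median of −0.02, a range from −0.74 to 0.44 and a median standard error of 0.11. Gm9899 held the lowest value without passing (limma, adjusted p = 0.0638). For the LIFR and OSMR arms together, whether the difference of hlOSM from mOSM departed from that of mLIF from PBS was tested as an interaction by limma. No lncRNA passed (all genes 0.167%), nor did any in the blocked fit (all genes 0.106%), and 20 had an unadjusted p under 0.05 (all genes 11.5%). Without PBS replicate 1 or hlOSM replicate 3, 1200007C13Rik passed with differences of −0.70 and −0.71 on the log2 scale, against −0.62 with all libraries. Mir99ahg passed without mOSM replicate 3, with a difference of 0.48 against 0.38 with all libraries, and 5031425E22Rik (0.39 with all libraries), named here for this reason only, also passed in 1 such fit.

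The broader list of lncRNAs with an established name held 49 tested genes. With mLIF, mOSM and hlOSM, 5, 14 and 15 of them were raised (all genes 5.47%, 15.4% and 18.2%). In the same order, 3, 10 and 10 were lowered (all genes 4.44%, 15.8% and 19.8%). Among the 25 of them in the set of 102, these numbers were 2, 8 and 9 raised and 2, 6 and 6 lowered. Their median log2 fold changes were 0.05, 0.07 and 0.07, beside −0.12, −0.19 and −0.20 for the 102 as a whole. The wider list of 12 tested microRNA hosts had 2, 3 and 4 raised and 2, 5 and 5 lowered, and of the 3 nuclear body RNAs 1, 0 and 1 were raised and 0, 1 and 1 lowered. Morrbid, known to control the survival of short-lived myeloid cells, had 40, 47 and 22 with PBS, 56, 46 and 76 with mOSM, then 46, 52 and 71 with hlOSM. Its groups overlapped, and its log2 fold changes of 0.73 and 0.66 passed with a standard error of 0.22, the widest in the set.

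The remaining 36 lncRNAs passed with no cytokine. Their log2 fold changes and those of other values that did not pass lay between −0.38 and 0.50 for mLIF, −0.45 and 0.29 for mOSM, and −0.41 and 0.22 for hlOSM. Values inside these ranges passed in lncRNAs with smaller standard errors, such as Neat1 and Oip5os1, so that these 36 are not shown to be without a change.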

How the data were processed

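RNA of 12 libraries, 3 per condition by the sample titles, had been prepared with a stranded total RNA kit. Per the submitters' processing notes and the study's methods, the authors trimmed reads, aligned them to mm10 with STAR 2.7.7a, counted them with featureCounts 1.6.5 without reads on several genes or loci, and deposited whole-number normalized counts. These deposited values are scores on a count scale, and the normalization method and the strand setting are not given in the sources used here. The classes, symbols and coordinates are those of the table. Exons, overlaps and transcripts came from GENCODE M21 on the same build, in which 102 of 102 lncRNAs were found, 98 with the same start and end.

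Tests used limma 3.58.1 in R 4.3.3 (lmFit, eBayes with trend) on log2(value + 1), so that fold changes of low genes are understated, with all 12 libraries in 1 fit. A gene entered with a value of 10 or more in 3 or more libraries (13184 genes), and passed at an adjusted p (Benjamini-Hochberg over all genes, two-sided) under 0.05. The script was tested on simulated data. Tables and plots used Python 3.11.15, pandas 2.3.3 and matplotlib 3.10.9. Exact permutation of 3 against 3 libraries cannot go below p = 0.1 and was not used.

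Named genes were lncRNAs of the list of established names, the 5 largest rises and falls per cytokine without overlap of libraries, those differing most between cytokines, the 10 highest and those beside the limit, with their neighbours; others are named for their microRNAs or partners after their values were seen. The members and lists were chosen with earlier results of these data known. Alternatives were other pseudocounts, filters, scaling, robust or 6-library fits, a replicate block, stricter rules for the set and leaving out each library.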

Additional observations from a re-analysis of the deposited data

How the results depend on the processing

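Replicate numbers do not mark shared material in the labels, and same-numbered libraries deviated against each other (18 pairs, r from −0.406 to −0.151, 0 of 12 libraries closest to their own number); the same deposited table holds almost no difference between replicate numbers. In the fit with a replicate block, the pairs changed in the same direction with mLIF fell from 9 to 4, those in opposite directions from 1 to 0, and the lncRNAs differing between hlOSM and mOSM from 2 to 0, while all other counts stayed within 1.5 times. The latter count was also 0 in the fit of 6 libraries and after rescaling by the trimmed mean of M-values, and 1 without a filter; the cause was not tested. Stricter rules for the set left fewer genes to count. With a mean of at least 100 (50 lncRNAs), 8 were lowered by mLIF, 22 lowered and 11 raised by mOSM, 22 lowered and 11 raised by hlOSM, and 10 and 19 differed between mOSM or hlOSM and mLIF. Without shared exonic bases (47), 8 were lowered and 3 raised by mLIF, 21 and 8 by mOSM, 22 and 9 by hlOSM, and 9 and 18 differed from mLIF. Without processed transcripts (72), 13 were raised by hlOSM, and 12 and 21 differed from mLIF.

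Leaving out single libraries gave 3 to 8 raised and 8 to 17 lowered lncRNAs with mLIF, 13 to 19 and 33 to 38 with mOSM, 17 to 21 and 35 to 43 with hlOSM, 13 to 21 for mOSM against mLIF, 24 to 35 for hlOSM against mLIF, 0 to 2 for hlOSM against mOSM and 0 to 2 for the interaction. Pairs changed in the same direction ranged from 2 to 12, 19 to 26 and 21 to 27, and in opposite directions from 0 to 1, 1 to 2 and 3 to 8. Without mLIF replicate 3, mLIF raised 3 and lowered 8 and 2 pairs moved together; without PBS replicate 3, mLIF lowered 9 and 3 pairs moved together. Such pairs numbered 4 without PBS replicate 2 and 5 without mLIF replicate 1 or 2, and leaving out any 1 of these 5 libraries, the single pair moving apart with mLIF was lost. The opposite pairs with hlOSM numbered 3 without PBS replicate 1 or without hlOSM replicate 3, and those with mOSM 1 without PBS replicate 3. The 2 lncRNAs lower with hlOSM than with mOSM did not both pass without PBS replicate 1 or 2 or mOSM replicate 2 (1 each), and none did without hlOSM replicate 1 or 3, any mLIF replicate, or mOSM replicate 1 or 3. No named value changed direction past the threshold under any alternative. Depth behind the values is unknown, and its effect on the calls was not tested.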
